A study of Mus musculus with 6 samples.

Results

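The acidic ANP32 proteins and 7 other histone chaperones were examined in RNA-Seq data of mouse embryonic fibroblasts (MEFs). The 10 genes were set by name: *Anp32a*, *Anp32b* and *Anp32e*, *Set* and *Nap1l1*, *Npm1*, the FACT subunits *Ssrp1* and *Supt16*, and *Asf1a* and *Asf1b*. They are 10 of 25039 genes and 18 of 42361 RefSeq transcripts in the table. RNA was sequenced from 3 wild type (WT) and 3 Anp32e null MEF cultures, which were primary cells from embryos, all below passage 8 and otherwise untreated. The labels do not name the null allele, the strain or the age of the embryos, and nothing in them says whether the libraries of a genotype came from separate embryos.

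The value examined was the authors' mean of the normalised counts over the 6 libraries, with 1 value per transcript. It pools the WT and the Anp32e null cultures, so it has no spread between replicates and gives no level per genotype, and no difference between WT and null cultures was examined here. The total count per library is unknown. The lowest means in the table moved in 6 steps, between 0.147 and 0.183 normalised counts, which is what 1 read was worth in each library. All 2010 means below 4 of the lowest step were sums of these steps within 1e-06. The matching size factors were between 0.909 and 1.13, so the libraries had similar depth by this measure. Of the marker genes of fibroblasts, 7 of 10 were above percentile 75 of all ranked genes per kb, led by *Vim* and *Fn1* and with *Pdgfra* the lowest at 91.9 per kb, while none of 4 epithelial, 4 endothelial and 4 blood cell markers was. *Epcam*, *Pecam1*, *Cdh5*, *Ptprc* and *Adgre1* had means between 0.178 and 5.12 normalised counts, whereas *Kdr* (2958) and *Krt18* (1106) had the highest means of these 12 markers. The sum of the levels per kb was 177218 for the fibroblast list, 85.1% of it from *Vim*, and 26422 without *Vim*. It was 801 for the epithelial, 509 for the endothelial and 220 for the blood cell list, and the part of such cells in the values of the 10 genes was not tested.

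Histone chaperones bind free histones and hand them to or take them from DNA. Many of them, but not all, carry acidic stretches that shield the basic histone surface. ANP32E is the family member that recognises the histone variant H2A.Z and removes it from nucleosomes, whereas ANP32A and ANP32B share its leucine-rich repeats and acidic tail. SET and ANP32A both inhibit the phosphatase PP2A, and both were found in a complex that masks histone tails from acetyltransferases.

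The acidic stretches can be read from the coding sequences of the transcripts (GENCODE M21, build GRCm38). The stretch of 50 codons richest in codons for aspartate or glutamate is shown for the ANP32 family, *Set*, *Npm1* and *Asf1a*. *Set* and *Npm1* also carry long uninterrupted acidic runs, of up to 11 and 21 codons, whereas the longest in *Asf1a* is 2. Capitals mark the codons for aspartate or glutamate, and codons are counted from 1 at the start codon.
Anp32a: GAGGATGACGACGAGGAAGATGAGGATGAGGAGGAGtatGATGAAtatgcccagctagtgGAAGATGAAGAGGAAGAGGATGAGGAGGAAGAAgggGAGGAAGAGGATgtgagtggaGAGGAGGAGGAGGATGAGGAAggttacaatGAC
Anp32b: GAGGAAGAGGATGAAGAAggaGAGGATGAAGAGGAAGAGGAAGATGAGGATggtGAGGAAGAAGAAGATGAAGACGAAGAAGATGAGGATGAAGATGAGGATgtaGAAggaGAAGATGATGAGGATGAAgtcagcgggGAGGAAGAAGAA
Anp32e: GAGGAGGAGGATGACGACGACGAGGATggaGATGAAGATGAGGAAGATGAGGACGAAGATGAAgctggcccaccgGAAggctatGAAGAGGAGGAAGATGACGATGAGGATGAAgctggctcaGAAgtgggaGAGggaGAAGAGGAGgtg
Set: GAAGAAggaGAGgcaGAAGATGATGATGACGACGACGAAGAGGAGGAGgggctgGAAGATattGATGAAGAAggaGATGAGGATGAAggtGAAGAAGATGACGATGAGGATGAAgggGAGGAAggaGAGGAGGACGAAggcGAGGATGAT
Npm1: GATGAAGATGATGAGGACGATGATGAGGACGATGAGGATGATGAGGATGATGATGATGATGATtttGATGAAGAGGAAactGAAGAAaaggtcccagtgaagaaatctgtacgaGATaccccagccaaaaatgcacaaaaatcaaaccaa
Asf1a: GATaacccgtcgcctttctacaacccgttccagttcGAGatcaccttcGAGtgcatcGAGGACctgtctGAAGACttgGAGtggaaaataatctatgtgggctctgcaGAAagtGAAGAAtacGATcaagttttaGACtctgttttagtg

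In *Anp32a* the stretch covers codons 165 to 214, from exon 4 to exon 6 (chr9:62373650-62377323, plus strand), and 37 of its 50 codons are acidic. In *Anp32b* it covers codons 181 to 230, from exon 4 to exon 6 (chr4:46468772-46471406, plus strand), and 43 are acidic. In *Anp32e* it covers codons 159 to 208, in exons 4 and 5 (chr3:95937171-95938006, plus strand), and 36 are acidic. The *Set* stretch is the end of the coding sequence, codons 240 to 289 in exons 7 and 8 (chr2:30070459-30070939, plus strand), with 40 acidic codons. In *Npm1*, codons 159 to 208 in exons 6 to 8 (chr11:33156703-33159980, minus strand) hold 28, and its longest uninterrupted run of 21 acidic codons exceeds those of *Anp32b* (17), *Anp32a* (12) and *Anp32e* (11). The *Asf1a* stretch, codons 13 to 62 in exons 1 and 2 (chr10:53597226-53602424, plus strand), holds 13, and its longest run is 2 codons.

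Over the whole coding sequence, acidic codons made up 39.7% in *Anp32b*, 36.9% in *Anp32e*, 35.6% in *Anp32a*, 29.8% in *Set*, 26.6% in *Nap1l1* and 22.6% in *Npm1*. The median over 16370 genes was 11.6%, and 90% of genes were at or below 16.0%. Acidity was part of the reason for naming the ANP32 genes, so their place in this distribution is a description. *Supt16* (17.5%) and *Ssrp1* (17.4%) were lower, but still at percentiles 94.6 and 94.4 of these genes. *Asf1a* (15.7%) and *Asf1b* (14.4%) were at percentiles 88.9 and 81.1. Counted in the richest stretch of 50 codons, where the median over all genes was 22%, *Supt16* still reached 56.0% and *Ssrp1* 46.0%, against 26.0% in *Asf1a* and 24.0% in *Asf1b*. In the last 50 codons, 80% were acidic in *Set*, 64% in *Anp32b*, 62% in *Anp32a*, 60% in *Anp32e* and 52% in *Nap1l1*, against 14% in *Npm1*, whose acidic stretch lies further inside. In global alignments of the coding sequences, 70.2% of the aligned bases were identical between *Anp32a* and *Anp32b*, 68.5% between *Anp32a* and *Anp32e*, 64.8% between *Anp32b* and *Anp32e*, and 71.8% between *Asf1a* and *Asf1b*. By the same measure, *Anp32a* and *Set*, which are of different families, reached 60.7%. With gaps counted, the shares were 63.7%, 64.7%, 60.6% and 70.4% in the same order, and 48.8% for *Anp32a* and *Set*. The closest pair of the ANP32 genes thus depended on how gaps were treated.

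**Figure D1:**
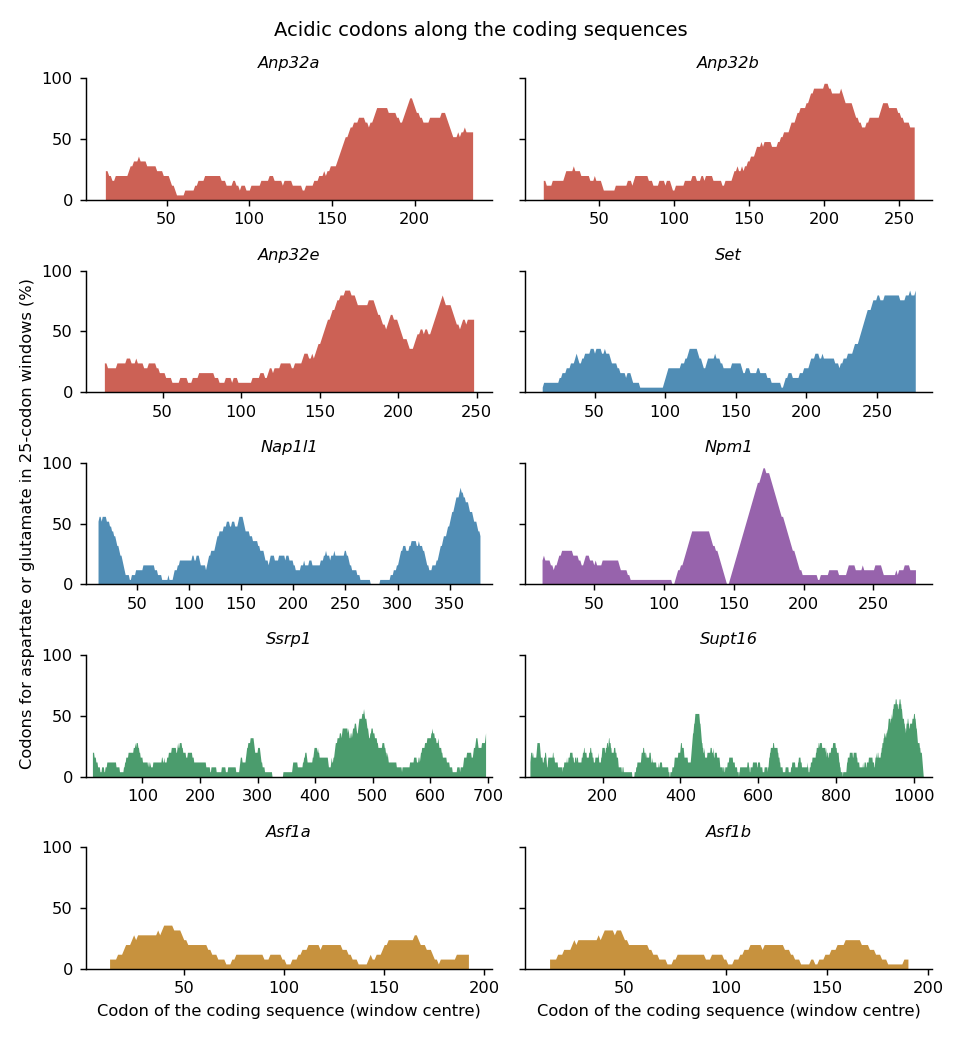
Share of codons for aspartate or glutamate in windows of 25 codons (percent, 0 to 100) along the coding sequence of each of the 10 genes, with the codon at the centre of the window on the x axis. The share is low over the opening part of *Anp32a*, *Anp32b* and *Anp32e* and high in their last part, while *Npm1* has an inner peak and *Asf1a* and *Asf1b* have none of this height.

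Every transcript of the 10 genes had reads. The gene deleted in the null cultures, *Anp32e*, lies on chromosome 3 from 95929246 to 95947390 on the plus strand and had 3 transcripts. The means of NM_023210 and NM_001253757 were the same, 2190 normalised counts over the 6 libraries, and that of NM_001253758 was 2016. A mean of 2190 stands for between 11943 and 14858 reads over the 6 libraries, depending on the libraries they came from. Since 3 of the 6 libraries are Anp32e null, the pooled mean is not the WT level. If no read came from the null cultures, the WT mean would be 4380 normalised counts, and no split of the reads between the genotypes could give a higher one.

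The 3 *Anp32e* transcripts differ in their coding exons. NM_023210 has 7 exons and 260 codons. NM_001253757 also has 7 exons, but its exon 5 is 122 instead of 158 bases long, which leaves 248 codons. NM_001253758 has 5 exons and 137 codons: it lacks exon 2 (95933909 to 95934058) and exon 3 (95934776 to 95934898) and enters exon 4 at 95937120. These exons encode leucine-rich repeats, and 76 of the 96 acidic codons of NM_023210 remain in NM_001253758. The mean of NM_001253758 was lower than that of the others by 174 normalised counts and reached 92.1% of it. Identical means over 6 libraries arise when the same reads are counted for both transcripts, so the means are not levels of separate isoforms. In the whole table, 2011 of 6258 genes with more than 1 transcript at a mean of at least 10 (32.1%) likewise had transcripts with identical means. In GENCODE, the transcript matched to NM_023210 carries 1893 bases that the one matched to NM_001253757 does not, mostly in the last exon. Lengths of the RefSeq transcripts themselves were not used here.

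**Figure D2:**
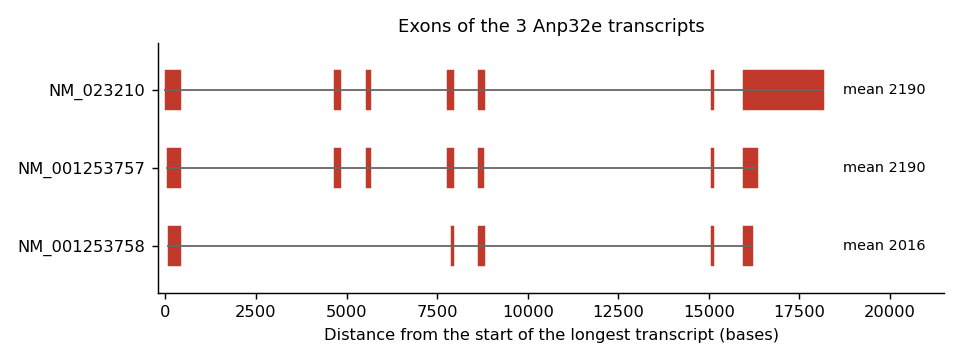
Exons (boxes) and introns (lines) of the 3 *Anp32e* transcripts as annotated in GENCODE, by distance in bases from the start of the longest transcript. The mean normalised count over the 6 libraries stands at the right, and NM_001253758, which lacks exons 2 and 3, has a mean of 2016 against 2190 for the others.

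The other ANP32 genes had 1 transcript each. *Anp32a* (chromosome 9, 62341329 to 62378812, plus strand) had a mean of 4529 normalised counts, or between 24700 and 30730 reads, and *Anp32b* (chromosome 4, 46450902 to 46472657, plus strand) of 2022. Per kb of spliced length, the means were 2143 for *Anp32a*, 1178 for *Anp32b* and 669 for *Anp32e*. Thus *Anp32a* supplied 53.7% of the summed level of the family per kb, *Anp32b* 29.5% and *Anp32e* 16.8%. These shares pool WT and Anp32e null cultures and are not WT shares. With the highest WT level of *Anp32e* that the pooled mean allows, 1338 per kb, and the other genes at their pooled levels, its share would be 28.7%. The value of *Anp32e* depends most on the length chosen: it was 669 per kb over 3274 bases, 1586 over the 1381 bases matched to NM_001253757 and 2296 for NM_001253758 over 878 bases. The last value is above those of *Anp32b* and *Anp32a*, and with it *Anp32e* would supply 40.9% of the sum. However, NM_023210 and NM_001253757 had the same mean although 1893 bases of the longer are absent from the shorter in GENCODE. The shorter lengths may therefore not fit the transcripts as counted, and the values per kb that rest on them may be too high. The order within the family depends on the length taken for *Anp32e* and was not settled here. The highest WT level that the pooled mean allows is likewise 1338 per kb over the 3274 bases and 3171 over the 1381 bases. The same limit holds for the value of 3171.

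*Set*, which encodes an acidic chaperone of the NAP1 family and inhibitor of PP2A, lies on chromosome 2 from 30061853 to 30072577 on the plus strand. Its transcripts NM_023871 and NM_001204875 start from different exons of 428 and 438 bases, share the other 7, and had means of 23217 and 23104 normalised counts, which differ by 113. The pooled level of *Set* per kb, 8221, was 3.84 times that of *Anp32a*. It was 12.3 times that of *Anp32e* over the 3274 bases and 3.58 times with the *Anp32e* transcript of highest level per kb. The length of the latter may not fit the transcript as counted. *Nap1l1*, a NAP1 chaperone of H2A and H2B, lies on chromosome 10 from 111473223 to 111496884 on the plus strand and had means of 25213 (NR_152558), 25106 (NM_001358932) and 22230 (NM_015781). Only NM_015781 could be matched to a length, 1486 bases, and gave 14960 per kb, whereas the union of all annotated exons of the gene, 4994 bases, gave 4451.

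*Npm1*, an abundant nucleolar chaperone, lies on chromosome 11 from 33152287 to 33163206 on the minus strand. Of the 18 transcripts, its NM_008722 had the highest mean, 28853 normalised counts, closely followed by NM_001252260 with 28851. NM_001252261, which ends in another last exon, had a mean of 25902. Per kb *Npm1* had 17669, which was 2.15 times the level of *Set*, and the ratio was 1.23 per kb of coding length. The FACT subunits, which act as a dimer on H2A and H2B during transcription, had unequal levels. *Ssrp1* (chromosome 2, 85037234 to 85047109, plus strand) had means of 23101 and 23042 for its 2 transcripts, NM_182990 and NM_001136081, and *Supt16* (chromosome 14, 52160414 to 52197416, minus strand) had a mean of 10357. Per kb *Ssrp1* had 8434 and *Supt16* 2216, a ratio of 3.81. The H3 and H4 chaperones *Asf1a* (chromosome 10, 53596952 to 53609225, plus strand) and *Asf1b* (chromosome 8, 83955507 to 83970197, plus strand) had means of 1426 and 2624. Per kb *Asf1a* had 648 and *Asf1b*, the paralog tied to proliferating cells, 1467, a ratio of 2.27.

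**Figure D3:**
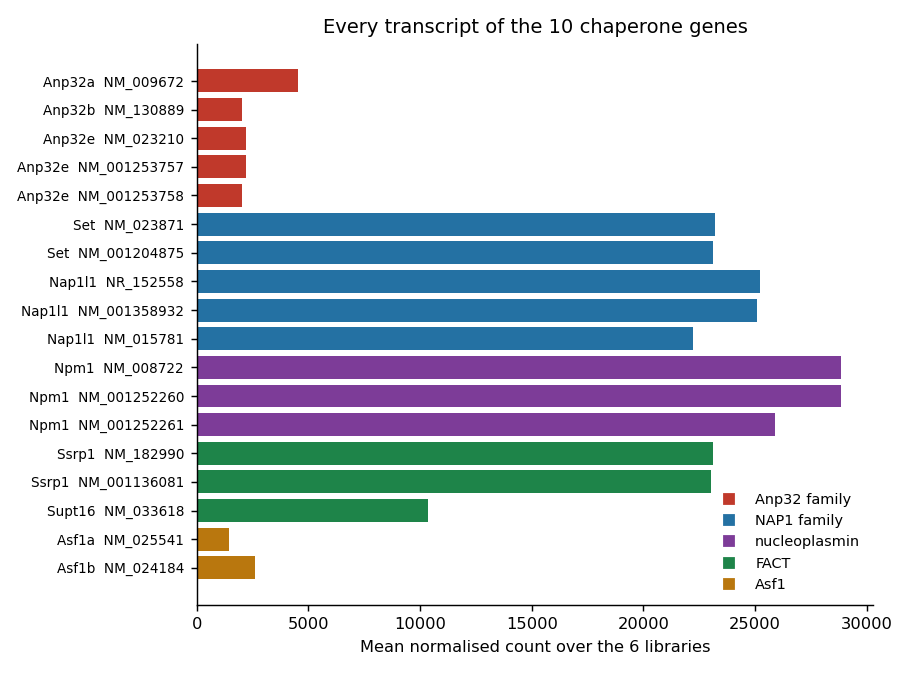
Mean normalised count over the 6 libraries, 3 WT and 3 Anp32e null, for each of the 18 RefSeq transcripts of the 10 genes, with bars coloured by family and no error bars, since the table holds 1 pooled mean each. Transcripts of *Npm1*, *Nap1l1*, *Set* and *Ssrp1* lie between 22230 and 28853, and those of *Anp32a*, *Anp32b*, *Anp32e*, *Asf1a* and *Asf1b* between 1426 and 4529.

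By level per kb the order was *Npm1*, *Nap1l1*, *Ssrp1*, *Set*, *Supt16*, *Anp32a*, *Asf1b*, *Anp32b*, *Anp32e* and *Asf1a*, and the range was 27.3-fold, or 14.1-fold per kb of coding length. The top 4 were the same genes with each length and transcript tried, and *Asf1a* was the lowest with each. The steps between neighbours were small in places. *Ssrp1* exceeded *Set* by a factor of 1.03, *Supt16* exceeded *Anp32a* by 1.03 and *Anp32e* exceeded *Asf1a* by 1.03. Counting error alone was small (95% Poisson interval 8390 to 8479 per kb for *Ssrp1* and 8178 to 8264 for *Set*), but the spread between libraries is not known and could not be set against these steps. The levels were ranked among 13501 autosomal genes that had a length and reached 10 normalised counts on average, whose median was 352 per kb. Of the 10 chaperone genes, 8 were above percentile 75 (1120 per kb), and 4 of these, *Npm1*, *Nap1l1*, *Ssrp1* and *Set*, were above percentile 95 (5831 per kb). *Anp32e* and *Asf1a* were at percentiles 64.3 and 63.6. The level of *Anp32e* pools WT and Anp32e null cultures, so its place in the order and its percentile are not those of WT cells. The highest WT level that its pooled mean allows, 1338 per kb over 3274 bases, is above the 1120 per kb of percentile 75.

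**Figure D4:**
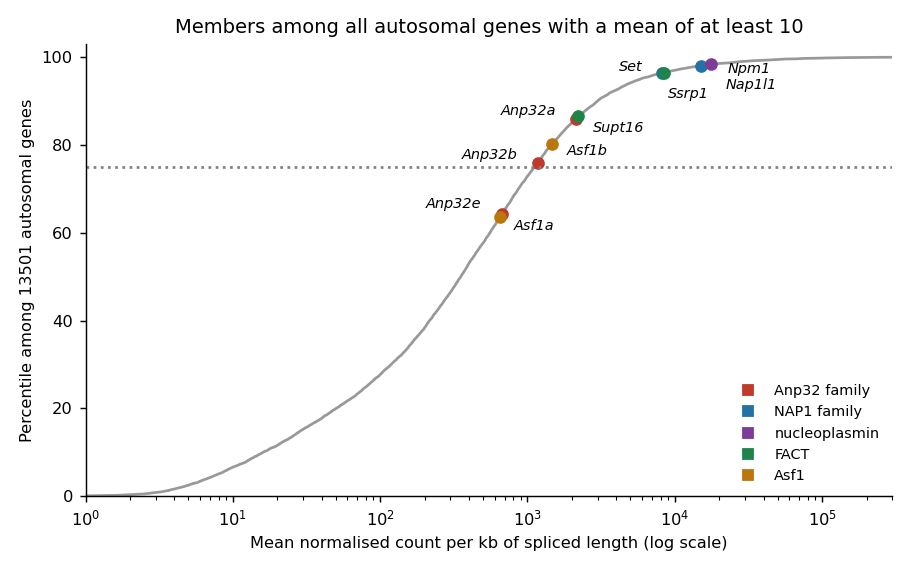
Percentile of each gene among 13501 autosomal genes (y axis) against its mean normalised count per kb of spliced length (x axis, log scale), with all genes as a grey line, the 10 chaperone genes as points and percentile 75 dotted. All but *Anp32e* and *Asf1a* lie above the dotted line, and *Anp32b* lies just above it at percentile 76.0. The level of *Anp32e* pools WT and Anp32e null cultures and is not a WT level.

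Some of these values rest on reads that other genes can share. Annotated exons of *Mcm9* on the opposite strand cover 68.8% of the exon bases of *Asf1a*, and *Mcm9* had a mean of 432 normalised counts. Exons of *Rpgrip1* on the opposite strand cover 22.6% of those of *Supt16*, and *Rpgrip1* had a mean of 1408. The libraries were prepared with a strand-preserving kit, but the methods name only default settings for the counting. Since transcripts of a gene shared reads, the settings used are uncertain. Whether reads of these pairs were told apart, shared or left out is not known. Copies with at least 90% identity over at least 50% of the coding sequence were annotated for *Set* (11 pseudogenes, up to 100% identity), *Npm1* (7 pseudogenes, up to 97.0%), *Anp32b* (2 pseudogenes and 1 antisense gene, up to 95.1%) and *Nap1l1* (2 pseudogenes, up to 99.8%). None of these copies was matched to a transcript of the table. For *Anp32a*, *Anp32e*, *Ssrp1*, *Supt16*, *Asf1a* and *Asf1b* no such copy was found. The levels of *Set*, *Npm1*, *Nap1l1* and *Anp32b* are uncertain to the extent that reads could be placed on either copy.

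The 10 genes were then set beside 47 other chaperones and partner proteins. All 47 had reads, with a median of 988 per kb against 2180 for the 10 genes, and 22 of the 40 that were ranked were above percentile 75. In the NAP1 and TSPY-like family, *Nap1l4* had 2972 and *Tspyl1* 1230 per kb, whereas *Nap1l2* had 1.91. Of the relatives of *Npm1*, *Npm3* had 7193 per kb, the nucleolar RNA-binding protein gene *Ncl* 1517, and the oocyte form *Npm2* 5.22. The order of *Npm3* and *Ncl* rests on the GENCODE lengths taken, 888 and 8202 bases. By mean normalised count *Ncl* (12441.5) was above *Npm3* (6388). Among 17 chaperones of H3 and H4 and of H3 variants, *Rbbp7* (6407 per kb) and *Mcm2* (5059), which bind H4 and the H3-H4 pair, were the highest and *Ubn2* (60.9) the lowest, with a median of 952. Of the transcription elongation factors, *Supt5* had 3341, *Supt4a* 2727 and *Iws1* 294 per kb.

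ANP32E acts on H2A.Z, and the list held both H2A.Z genes and 4 proteins of the complexes that deposit it. *H2afz* had 17860 per kb, next to the 17669 of *Npm1*, and the order of these 2 genes turned with the union of exons as length. *H2afv* had 1476 per kb. The deposition subunits *Znhit1* and *Vps72* had 3634 and 2069 per kb, and the large ATPases *Ep400* and *Srcap* 380 and 362. Partners of SET in the granzyme-sensitive SET complex were led by *Apex1* (6142 per kb) and *Nme1* (4318), with *Trex1* the lowest at 647. Of the PP2A genes, the scaffold *Ppp2r1a* had 8960 per kb, the catalytic *Ppp2cb* 3638 and *Ppp2r1b* 871. The other catalytic gene, *Ppp2ca*, had 1802 per kb over 7102 bases. Its mean of 12799 normalised counts was above the 5344 of *Ppp2cb*, whose length was 1469 bases. Of the 47 genes, *H2afz* and *Ppp2r1a* alone were above *Set*, 16 were above *Anp32a* and 29 above *Anp32e*. The count of 29 holds for the pooled *Anp32e* level of 669 per kb over 3274 bases. It would be lower with the shorter *Anp32e* lengths or with the highest WT level that the pooled mean allows, 1338 per kb.

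**Figure D5:**
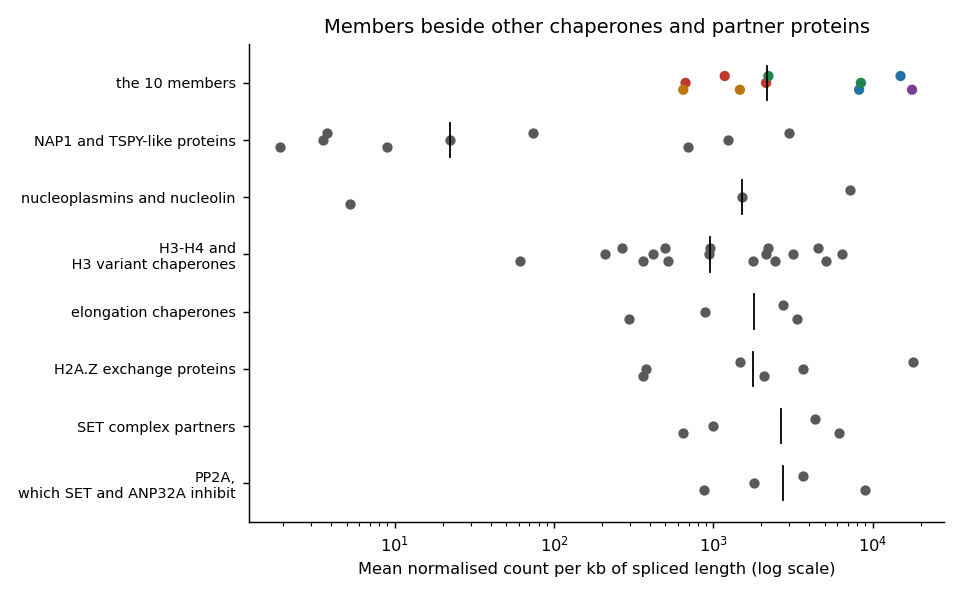
Mean normalised count per kb of spliced length (x axis, log scale) for the 10 chaperone genes, coloured by family (red ANP32, blue NAP1, purple nucleoplasmin, green FACT, ochre Asf1), and for 7 lists of other chaperones and partner proteins in grey, with each list's median as a vertical line. The 10 genes lie between 648 and 17669, with a median of 2180, and the NAP1 and TSPY-like list reaches down to 1.91.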

How the data were processed

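RNA-Seq of 3 WT and 3 Anp32e null MEF cultures was examined. The authors used RNA-STAR with mm10 as the genome, featureCounts of the Subread package for read counts per RefSeq transcript, and DESeq2. The signal used is the authors' deposited mean over the 6 libraries of counts divided by DESeq2 size factors. The other columns hold their own comparison of the genotypes (log2 fold change, standard error, Wald statistic, p-value and adjusted p-value) and were not used, so no test was made. Depth is known only through the steps of the lowest means, and the step search was tested on simulated data.

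Of 42361 transcripts, 42198 were matched to a gene by the RefSeq table of GRCm38.p6 and 35317 to a GENCODE M21 length (GRCm38). Where a RefSeq transcript matched several GENCODE transcripts, the longest gave the length. For each gene, the transcript of highest mean that had a length was taken, and the longest where means tied. Ranked genes were autosomal with a mean of 10 or more. Poisson intervals cover counting error only. Coding sequences were aligned globally (match 2, mismatch -1, gap opening -5, gap extension -1) and copies were searched with blastn 2.17.0. Python 3.11.15, pandas 2.3.3, scipy 1.17.1, biopython 1.88 and matplotlib 3.10.9 were used. The members and lists were chosen with earlier results of these data known. The genes named were all members and, of each other list, the highest 2 and the lowest. Some markers, overlapping genes, *H2afv*, *Vps72*, *Ep400* and *Ppp2ca* were also named and were chosen after their values were seen. Alternatives were the transcript with the highest level per kb, coding length, length less 150 bases, other filters on the mean, keeping X and Y and, added after seeing the data, the union of all exons.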

Additional observations from a re-analysis of the deposited data

How the results depend on the processing

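The share of the summed level per kb of the ANP32 family that came from *Anp32e*, 16.8% with the length of its longest transcript, was 40.9% with the transcript of highest level per kb, 24.6% with coding length, 16.3% with length less 150 bases and 19.1% with the union of all exons. The value of 40.9% rests on a GENCODE length of 878 bases, which may not fit the transcript as counted. All these shares pool WT and Anp32e null cultures and are not WT shares. The ratio of *Ssrp1* to *Supt16*, 3.81, was 3.30 with coding length and 3.01 with the union of exons. That of *Asf1b* to *Asf1a*, 2.27, was 1.86 with coding length and 2.86 with the union. Of the 10 genes, 8 were above percentile 75 in each of these settings, with X and Y kept and with all genes above 0, and 7, without *Anp32b*, with a mean of at least 50. With coding length and with the transcript of highest level per kb, 7 of the 8 were shared, *Anp32e* taking the place of *Anp32b*. With the latter, *Anp32e* was also above *Supt16*, *Anp32a* and *Asf1b*. With coding length, *Set* was above *Nap1l1* and *Ssrp1*, and *Anp32a* and *Asf1b* above *Supt16*. With length less 150 bases, *Anp32a* was above *Supt16*. With the union of exons, *Ssrp1* and *Set* were above *Nap1l1*, and *Anp32b* above *Asf1b*. No paired analysis was possible because the table holds 1 mean over the 6 libraries, and for the same reason no library could be left out. The total count of each library and the spread between libraries are unknown, so no difference in level has a replicate check.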
